A study of Homo sapiens with 79 samples.

Results

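The 10 genes described here are 7 transcription factors and 3 genes of GABA synthesis and packaging that mark horizontal and amacrine cells of the retina. They were TFAP2A, TFAP2B, PROX1, ONECUT1, ONECUT2, PTF1A and LHX1 (called regulators here) and GAD1, GAD2 and SLC32A1 (called GABA genes). They were taken from the table by symbol, and all 10 are among its 24414 genes. Retinal organoids, layered aggregates that resemble the developing retina, were grown from H9, a human embryonic stem cell line that here carried a CRX-GFP reporter. Cells of day 60, day 90 and day 200 of differentiation were captured on Fluidigm C1 chips and sequenced as SMART-Seq v4 cDNA, with 1 chip (578 cells) at day 60, 1 chip (661 cells) at day 90 and 2 chips, a (356 cells) and b (381 cells), at day 200, called 200a and 200b here. The 79 samples are the columns of these 4 chips. All organoids came from this line and received Y27632 (a ROCK inhibitor) at the start and later serum, T3, taurine and retinoic acid. Day 60 and day 90 have no second chip, so day and chip cannot be told apart there, no test was made, and the values below describe these chips.

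Horizontal and amacrine cells are the inhibitory interneurons of the retina. Horizontal cells modulate photoreceptor output, and amacrine cells act on bipolar and ganglion cells. PTF1A is required for both fates. ONECUT1, ONECUT2, PROX1 and LHX1 are known for the horizontal fate, and the AP-2 factors TFAP2A and TFAP2B for amacrine and horizontal cells. GAD1 and GAD2 make GABA from glutamate, and SLC32A1 loads GABA and glycine into synaptic vesicles. None of these genes is particular to the retina: PTF1A, LHX1 and the GABA genes also mark inhibitory neurons of the hindbrain and spinal cord, AP-2 factors mark neural crest and surface ectoderm, and ONECUT genes are also read in photoreceptor precursors and ganglion cells.

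Reads per column ran from 3414268 to 7999822, and the median cell had 160343 to 251929 reads on the 4 chips. At 50000 reads per cell, the median cell of 200a had reads of 1669.5 genes, against 2777 on 200b, 2886 at day 90 and 3120.5 at day 60. A 0 needs care in this table. On the chips of day 90 and 200b, 0 genes had reads in 1 to 4 cells (14 at day 60 and 6 on 200a), while 754 to 1123 genes per chip had reads in exactly 5 cells. A gene listed at 0 on a chip may therefore have been read in fewer than 5 cells there, and no fold or limit is given for it. PTF1A and LHX1 were listed at 0 on all chips after day 60, and SLC32A1 on 200a.

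Upstream sequences were searched for the palindrome GCCNNNGGC, which AP-2 proteins bind, because cells with an AP-2 factor are set against GABA gene reads below. The motif reads the same on both strands and does not overlap the other motif searched. GAD2 is shown because it held a match, SLC32A1 as a GABA gene without one, and TFAP2A as an AP-2 gene. GAD1, the GABA gene most often read with TFAP2A, had no match, and its window is not shown because it overlaps exons of the gene. Each is the 250 bases before a RefSeq gene start, 5′ to 3′ along the gene, in build GRCh38.p14, with matches in capitals. GAD2 lies on chr10:26216665-26304558 (+ strand, GENCODE 44), and the window shown, chr10:26216122-26216371, overlaps no GAD2 exon. SLC32A1 lies on chr20:38724486-38729372 (+), with the window chr20:38724236-38724485. TFAP2A lies on chr6:10393186-10419659 (-), with the window chr6:10419660-10419909.
GAD2: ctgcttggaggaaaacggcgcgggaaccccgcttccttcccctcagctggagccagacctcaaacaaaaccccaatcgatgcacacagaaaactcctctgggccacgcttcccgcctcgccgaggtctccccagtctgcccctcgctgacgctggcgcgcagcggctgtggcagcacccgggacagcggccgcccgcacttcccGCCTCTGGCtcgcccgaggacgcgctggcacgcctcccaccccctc
SLC32A1: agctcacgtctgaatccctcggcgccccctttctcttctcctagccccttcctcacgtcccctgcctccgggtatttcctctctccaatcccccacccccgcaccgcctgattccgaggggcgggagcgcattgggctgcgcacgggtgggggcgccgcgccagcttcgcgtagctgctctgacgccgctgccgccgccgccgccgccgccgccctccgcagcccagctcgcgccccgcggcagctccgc
TFAP2A: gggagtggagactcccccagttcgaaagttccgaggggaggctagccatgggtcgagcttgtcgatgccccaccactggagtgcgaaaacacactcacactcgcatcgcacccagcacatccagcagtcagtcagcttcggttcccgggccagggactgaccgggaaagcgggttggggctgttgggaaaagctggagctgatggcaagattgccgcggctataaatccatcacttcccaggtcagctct
The GAD2 window shown held a match 46 bases before the start, and neither the SLC32A1 nor the TFAP2A window held any. Both GAD2 and TFAP2A have a second RefSeq start, and the second GAD2 window held a match 25 bases before it, while the second TFAP2A window held none. In all, 9 windows of 7 of the 10 genes were found, and 3 of the 9 (both of GAD2 and that of ONECUT1) held the motif, beside 19.8% of all 35116 windows. The ONECUT motif ATTGAT, searched on both strands, was in no window of the 7 genes and in 5.58% of all windows.

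The AP-2 factors differed in how they moved with day. TFAP2A was at 2.68 CPM (reads per 1000000 gene reads of the chip, with an exact 95% Poisson interval 2.37 to 3.01) at day 60, 17.4 CPM (16.7 to 18.2) at day 90, 38.4 CPM (37.1 to 39.6) on 200a and 22.7 CPM (21.7 to 23.7) on 200b. All later chips lay above day 60, by 2.32 at day 90, 3.42 on 200a and 2.69 on 200b on the log2(CPM + 1) scale. Over the chip columns, TFAP2A ranged from 0 to 20.3 CPM with a median of 0 at day 60, from 0 to 66.2 (median 12.5) at day 90, from 0 to 374 (median 3.04) on 200a and from 0 to 133 (median 3.58) on 200b, so that the columns overlap although the chips do not. Intervals here and below cover counting error only, since copies of 1 cDNA molecule were counted as separate reads. TFAP2B was at 4.53 CPM at day 60, 3.89 at day 90, 9.83 on 200a and 5.67 on 200b, and no chip differed from day 60 by 2-fold in CPM + 1. Few cells carried these reads. The cell with the most TFAP2B reads held 40.9% to 49.6% of a chip's reads, and without it the 4 values were 2.54, 2.30, 5.16 and 2.87 CPM. For TFAP2A the cell with the most reads held 37.0% of the reads at day 60, 10.1% at day 90, 35.8% on 200a and 30.8% on 200b, and the values without it, 1.70, 15.7, 24.7 and 15.7 CPM, kept the same order against day 60. TFAP2A-AS1, an antisense gene at the TFAP2A locus, reached 0.285 CPM at day 90 and was listed at 0 elsewhere.

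The ONECUT genes were lower at day 200. ONECUT1 was at 19.1 CPM (18.3 to 19.9) at day 60, 10.6 (9.98 to 11.2) at day 90, 5.19 (4.75 to 5.67) on 200a and 5.67 (5.19 to 6.19) on 200b, so that the day 200 chips were 3.67-fold and 3.36-fold below day 60. Both day 200 chips lay below both earlier chips. ONECUT2 was at 115 CPM (113 to 117) at day 60, 108 (106 to 110) at day 90, 63.8 (62.2 to 65.4) on 200a and 19.8 (18.9 to 20.7) on 200b. 200b was 5.81-fold below day 60 and 200a 1.80-fold, and the day 200 chips differed from each other 3.23-fold, which is more than 200a differed from day 60.

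The columns of ONECUT2 ran from 14.7 to 330 CPM with a median of 92.8 at day 60, from 0 to 469 (median 93.9) at day 90, from 0 to 234 (median 41.8) on 200a and from 0 to 81.3 (median 8.55) on 200b. Their medians fall in the order of the chip values, except that days 60 and 90 are level, and the columns overlap.

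PROX1, which in the retina is found in horizontal cells, some amacrine and bipolar cells and glia, was at 21.2 CPM (20.3 to 22.1) at day 60, 61.8 (60.3 to 63.2) at day 90, 45.2 (43.9 to 46.6) on 200a and 67.3 (65.6 to 69) on 200b. The day 90 chip was 2.92-fold, 200a 2.14-fold and 200b 3.18-fold above day 60. On 200a the difference passed 2-fold in CPM + 1 only narrowly, at 1.06 on the log2 scale, and was 0.86 without called doublets, 0.97 as a mean over cells and 0.94 with a pseudocount of 5. PROX1-AS1, which overlaps PROX1 on the other strand, had 1.66 to 5.44 CPM per chip, and the counting parameters name no strand setting, so reads from the shared stretch cannot be told apart.

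PTF1A and LHX1 were read at day 60 only, within the limit on zeros given above. PTF1A had 270 reads in 8 cells at day 60 (2.57 CPM, 2.28 to 2.90), all from 2 of the 19 columns, and 41.9% of them came from 1 cell. LHX1 had 117 reads in 23 cells (1.11 CPM, 0.922 to 1.34), which lay in 15 of the 19 columns. Of the 10 genes these have the fewest reads.

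Among the GABA genes, GAD1 was at 13.0 CPM (12.3 to 13.7) at day 60, 43.7 (42.5 to 44.9) at day 90, 51.5 (50.1 to 53) on 200a and 31.2 (30.1 to 32.4) on 200b. All later chips were above day 60, by 3.37-fold, 3.98-fold and 2.41-fold. GAD1 columns had medians of 7.82 CPM (0.182 to 43.8) at day 60, 38.7 (2.53 to 115) at day 90, 28.1 (0 to 296) on 200a and 24.4 (0 to 100) on 200b, which overlap but keep day 60 lowest. GAD2 was at 19.7 CPM (18.9 to 20.6) at day 60, 16.1 (15.3 to 16.8) at day 90, 37.1 (35.9 to 38.3) on 200a and 51.5 (50 to 53) on 200b. Both day 200 chips were above both earlier chips, but only 200b passed 2-fold against day 60, at 1.34 against 0.88 for 200a on the log2(CPM + 1) scale. SLC32A1 was at 4.50 CPM at day 60, 3.24 at day 90 and 5.66 on 200b, and on 200b 56% of its reads came from 1 cell, without which the value was 2.50 CPM.

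Counted over the genes, day 90 was at least 2-fold above day 60 in CPM + 1 for 3 of the 6 of the 10 genes that reached 5 CPM on a chip compared (TFAP2A, PROX1 and GAD1), and 0 were lower, beside 11.5% of all 13031 genes higher and 8.34% lower (here and below genes listed at 0 on a chip compared are kept in the shares over all genes, but none is counted among the 10). On both day 200 chips against day 60, TFAP2A, PROX1 and GAD1 were higher and ONECUT1 was lower out of 8 genes, beside 8.07% of 13809 genes higher and 4.40% lower. Against day 90, only GAD2 was higher on both day 200 chips and 0 of 8 genes were lower, beside 3.19% of 13679 genes higher and 2.53% lower. 200b was lower than 200a for ONECUT2, and SLC32A1 passed the fold only against its 0 on 200a, beside 9.75% of 13269 genes higher and 6.90% lower between these repeats of the same day. The median log2 difference of day 200 from day 60 was 1.11 over the 7 genes with reads on every chip compared and 0.07 over all 13809 genes.

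**Figure D1:**
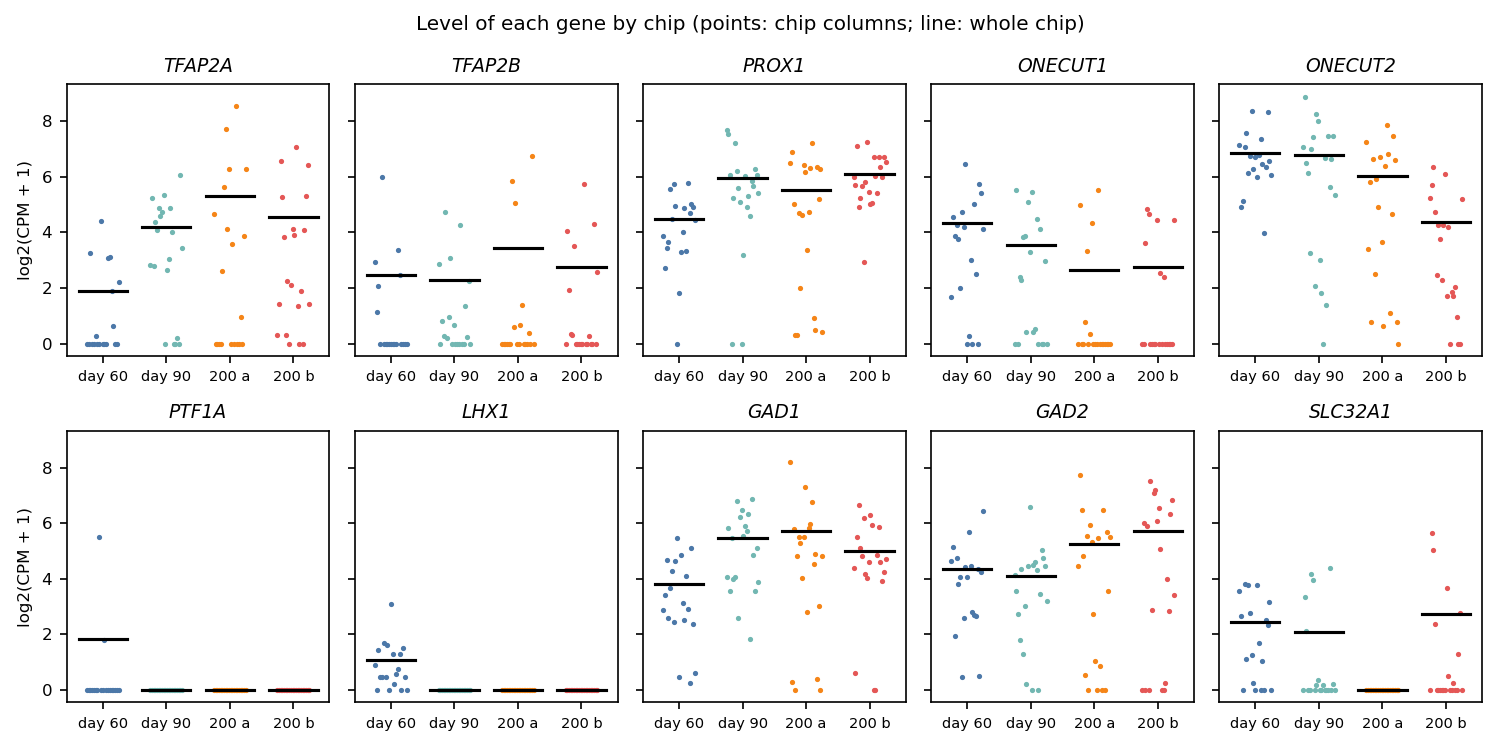
Levels of the 10 genes by chip as log2(CPM + 1), with 1 point per chip column (19 at day 60, 20 on each other chip) and a line for the whole chip. TFAP2A and GAD1 lie higher on all later chips than at day 60, ONECUT1 and ONECUT2 lower at day 200, PTF1A and LHX1 are listed at 0 after day 60, and many columns hold no read of TFAP2B, PTF1A or SLC32A1.

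Levels summed over a chip mix the number of cells with the reads per cell. After thinning each cell to 50000 reads, TFAP2A was read in 8 of 578 cells at day 60 (1.38%, exact 95% binomial interval 0.599 to 2.71), 41 of 655 at day 90 (6.26%, 4.53 to 8.40), 18 of 356 on 200a (5.06%, 3.02 to 7.87) and 24 of 381 on 200b (6.30%, 4.08 to 9.23). The later intervals lie above that of day 60. TFAP2B was read in 1.69% to 2.29% of the cells of each chip, with overlapping intervals. ONECUT2 was read in 31.7% of cells (27.9 to 35.6) at day 60, and in 16.9% (14.2 to 20.0) at day 90, 10.4% (7.42 to 14.0) on 200a and 8.66% (6.04 to 11.9) on 200b. ONECUT1 was read in 5.54% at day 60 and in 3.66%, 1.12% and 2.10% on the later chips. The PROX1 share did not follow its level. It was 13.7% at day 60, 15.6% at day 90 and 11.8% on 200a, with overlapping intervals, and 25.2% (20.9 to 29.9) on 200b. GAD1 was read in 7.27% (5.29 to 9.70) at day 60, 15.0% (12.3 to 17.9) at day 90, 11.2% (8.15 to 15.0) on 200a and 14.4% (11.1 to 18.4) on 200b. GAD2 shares were 10.7%, 7.02%, 7.58% and 11.0% in the same order, so that the higher GAD2 level on 200a came with no larger share of cells than at day 60. The SLC32A1 share was 3.46% (20 cells) at day 60, 1.22% (8 cells) at day 90 and 1.57% (6 cells) on 200b. Without thinning the shares of cells were higher, except for ONECUT1 on 200b (2.10% both ways) and genes listed at 0, for example 2.77%, 8.93%, 6.74% and 7.87% for TFAP2A and 10.0%, 21.0%, 17.4% and 16.8% for GAD1, and the share of cells with 5 or more reads was 1.21%, 4.39%, 4.21% and 5.77% for TFAP2A.

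**Figure D2:**
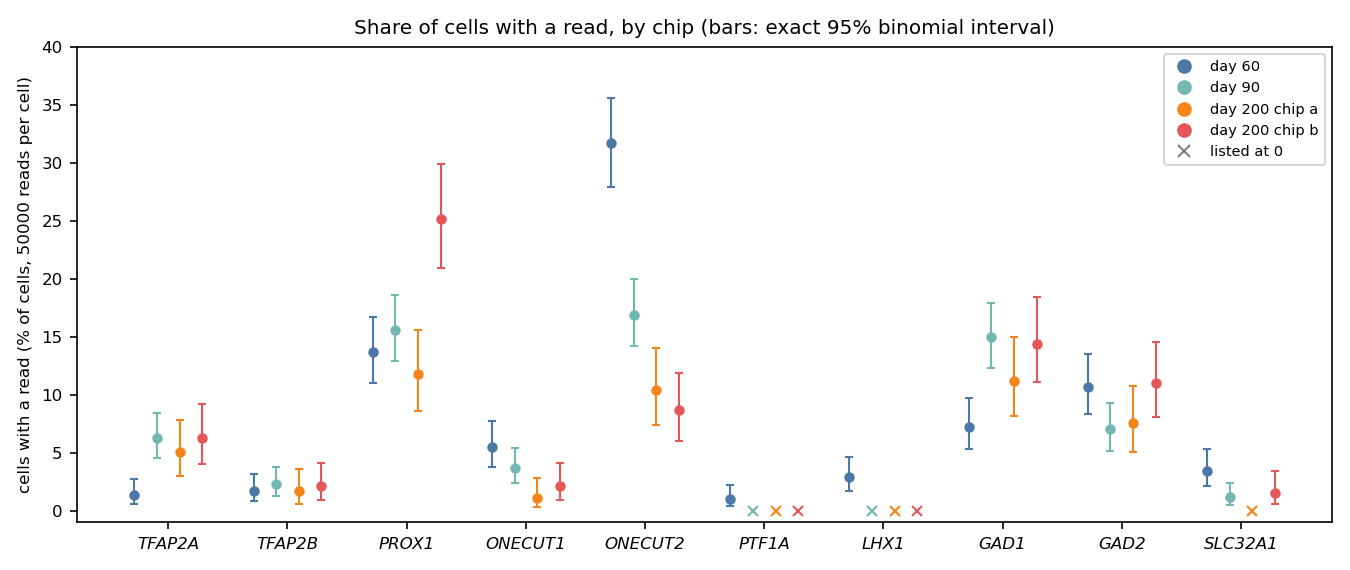
Percent of cells with a read of each gene by chip, every cell thinned to 50000 reads, with exact 95% binomial intervals; crosses mark genes listed at 0 on a chip. The ONECUT2 share is 31.7% at day 60 and 8.66% to 16.9% later, and the TFAP2A share is 1.38% at day 60 and 5.06% to 6.30% later.

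To see which cells held these reads, all cells were clustered without the 10 genes and without the lists of companion genes described below, which gave 12 clusters. A cluster of 144 cells led by NEFL, CAMKV, NEFM and NSG2, neuronal genes, had the highest share of cells for 9 of the 10 genes. It carried all 9 genes checked of the 10 that the study lists for retinal ganglion cells (a list chosen on these same cells). ONECUT2, also on that list, was left out of the check as 1 of the 10 genes described here. HOXA5 was among the cluster's 10 leading genes, so it is named here by its leading genes. POU4F2, a defining factor of ganglion cells, was read in 6.25% of its cells and 2.41% of those of other clusters. For SNCG these shares were 20.1% and 3.78%, for ATOH7 4.86% and 4.16%, and for RBPMS 7.64% and 16%. The cluster made up 88 cells at day 60, 27 at day 90, 10 on 200a and 19 on 200b. The reads of SLC32A1 were the most concentrated: 23 of its 144 cells (16.0%, 10.4 to 23) had a read, at most 1.61% in any other cluster, and 87.7% of all SLC32A1 reads lay in it. It also held 60.7% of LHX1, 48.8% of TFAP2A, 46.7% of PTF1A and 43.9% of TFAP2B reads, although it had 7.29% of the cells. Without the 1 cell of the cluster that had the most reads of the gene, these parts were 84.5% for SLC32A1, 46.5% for LHX1, 38.6% for TFAP2A and 37.3% for TFAP2B, but 8.28% for PTF1A. TFAP2A was read in 14.6% (9.26 to 21.4) of its cells, TFAP2B in 7.64%, ONECUT1 in 12.5%, ONECUT2 in 44.4% (36.2 to 52.9), GAD1 in 22.2% (15.7 to 29.9) and GAD2 in 25.7% (18.8 to 33.6). The RPE-like cells (97 cells, pigment epithelium, median 187992 reads against 168264 in the NEFL and CAMKV cluster), which should lack most of these genes, gave 10.3% (5.06 to 18.1) for GAD1, 6.19% for ONECUT2 and for PROX1, 2.06% for GAD2 and 1.03% for TFAP2A, TFAP2B and ONECUT1, and 0 of 97 for SLC32A1, which allows a share of up to 3.09%. GAD1 shares of the Müller glia-like (7.64%), rod-like (8.06%) and mitotic-like (5.56%) cells lay below that of RPE-like cells, and that of cone-like cells, 11.3%, was close to it. Whether the GAD1 reads of RPE-like cells are background was not tested. The RPE-like cells with a GAD1 read had a median of 47.3 CPM, and 78 of the 97 RPE-like cells were of day 90. GAD1 was at 17.4% (13.3 to 22) in a cluster of 312 cells led by the stress genes GDF15 and ANGPTL4, an interval that overlaps that of RPE-like cells.

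Other clusters stood out for single genes. PROX1 was read in 29.9% (22.8 to 37.8) of the 154 cells of a cluster led by IGFBP6 and ABCB1, its highest share. The next shares were 23.6% in the NEFL and CAMKV cluster and 21.6% in a cluster of 51 cells led by GFAP and TTC6. It was 21.1% in a cluster of 213 cells led by VSX1 and KLHL35, where VSX1 is a factor of bipolar cells. The VSX1 and KLHL35 cluster also had ONECUT2 in 34.7% and ONECUT1 in 8.45% of its cells. Cone-like cells had ONECUT2 in 23.5% and ONECUT1 in 2.61%. GAD2 was read in 17.5% (11.9 to 24.5) of the IGFBP6 and ABCB1 cluster and in 12.0% of the mitotic-like cells. A cluster of 72 cells led by AOC2 and CPAMD8 had TFAP2A in 13.9% (6.87 to 24.1) and GAD1 in 19.4% (11.1 to 30.5) of its cells but TFAP2B in 0 of 72, which allows a share of up to 4.17%. None of its cells on the chips of day 60, day 90 and 200b had 3 or more HOX genes, the split described below. In ECM-like cells, which express collagen genes and are led by COL3A1, TFAP2A was read in 9.64% (4.25 to 18.1) and TFAP2B in 7.23% (2.70 to 15.1), with GAD1 at 7.23%, under the share of RPE-like cells.

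**Figure D3:**
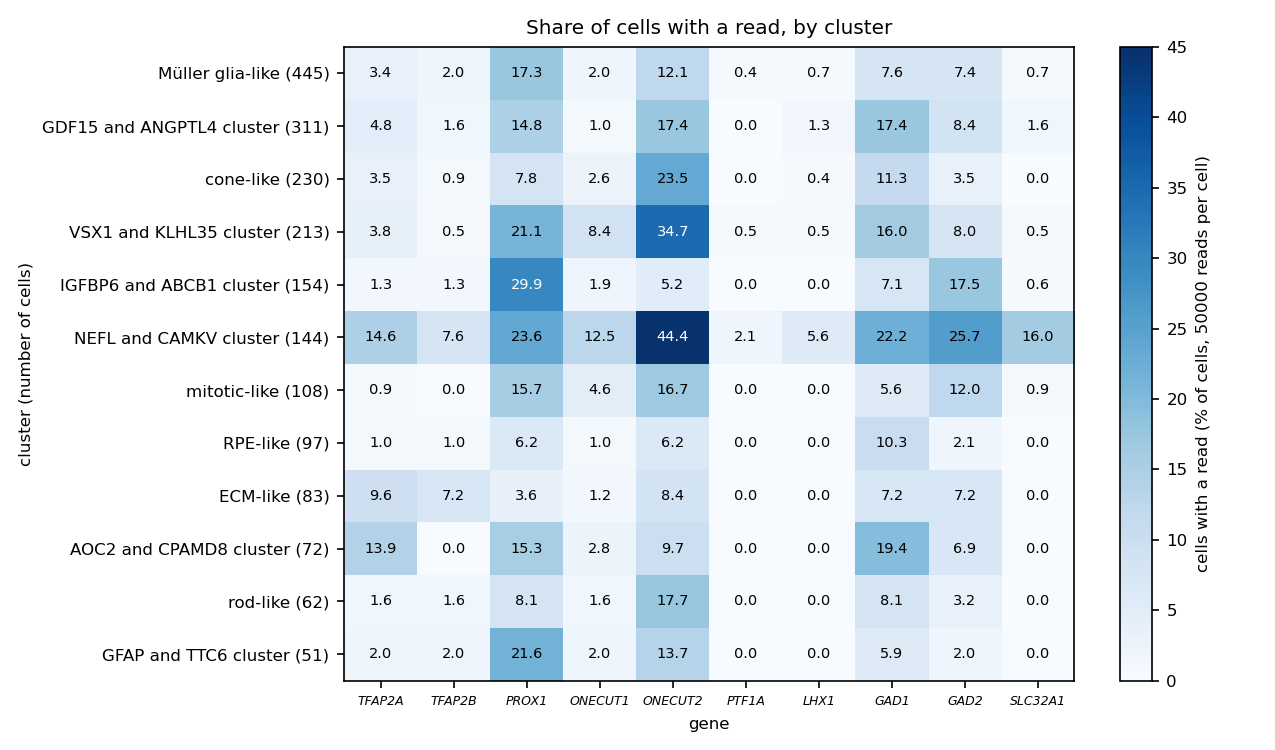
Percent of cells with a read of each gene (columns) in each of the 12 clusters (rows, with the number of cells of at least 50000 reads), every cell thinned to 50000 reads. The NEFL and CAMKV row is the darkest for every gene except PROX1, whose highest share, 29.9%, is in the IGFBP6 and ABCB1 cluster.

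Markers of another region of the nervous system went with some of these genes at day 60. HOX genes mark the hindbrain and spinal cord and are not expected in retina. Of 578 cells at day 60, 254 (43.9%) had reads of 3 or more HOX genes at 50000 reads per cell, against 46 of 655 (7.02%) at day 90, 15 of 356 (4.21%) on 200a and 84 of 381 (22%) on 200b. This split was chosen after the values were seen. In the NEFL and CAMKV cluster, 85 of 88 cells were HOX cells at day 60, 8 of 27 at day 90, 1 of 10 on 200a and 10 of 19 on 200b. HOX cells also lay in other clusters at day 60, among them 35.7% of the Müller glia-like, 31.8% of the mitotic-like and 20.5% of the cone-like cells. At least 3 of 7 retinal identity genes were read in 83.2%, 89.4% and 84.1% of all day 60 cells of these clusters. HOX cells thus include cells of clusters in which most cells carry retinal identity genes. At day 60 the HOX cells held 90.9% of the SLC32A1, 92.2% of the TFAP2B, 84.8% of the PTF1A and 82.9% of the LHX1 reads, with 43.1% of all reads. SLC32A1 was read in 17 of the 254 HOX cells (6.69%, 3.95 to 10.5) and 3 of the 324 others (0.926%, 0.191 to 2.68), and LHX1 in 15 (5.91%, 3.34 to 9.55) and 2 (0.617%, 0.0748 to 2.21). PTF1A was read in 5 HOX cells (1.97%, 0.642 to 4.53) and 1 other cell (0.309%, 0.00781 to 1.71), with overlapping intervals. TFAP2B was read in 8 (3.15%, 1.37 to 6.11) and 2 (0.617%, 0.0748 to 2.21), also with overlapping intervals. GAD2 was read in 15.0% (10.8 to 20.0) of HOX cells and 7.41% (4.80 to 10.8) of the others, and PROX1 in 19.3% (14.6 to 24.7) and 9.26% (6.33 to 13.0). GAD1 (7.48% and 7.10%), ONECUT2 (31.1% and 32.1%), ONECUT1 (4.33% and 6.48%) and TFAP2A (1.18% and 1.54%) had overlapping intervals. Thus at day 60 LHX1 and SLC32A1 were read mostly in HOX cells, and the ONECUT genes, GAD1 and TFAP2A showed no such difference in their shares of cells. The reads of PTF1A and TFAP2B also lay mostly in HOX cells, but they came from few cells. At day 60, 1 cell held 41.9% of the PTF1A and 1 cell 44% of the TFAP2B reads.

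On the later chips, TFAP2A, GAD1 and ONECUT2 were read in a larger share of the NEFL and CAMKV cells without 3 HOX genes than of those with them, with intervals apart for ONECUT2 only. These cells are pooled over chips of unlike makeup, with HOX cells at 8 of 27 at day 90, 1 of 10 on 200a and 10 of 19 on 200b. ONECUT2 was read in 70.4% of the cluster at day 90, 60% on 200a and 21.1% on 200b. The pooled HOX split is therefore mixed with chip here. Within chips, HOX cells were 3 of the 19 cluster cells with ONECUT2 at day 90 and 1 of 4 on 200b. For TFAP2A they were 1 of 10 and 2 of 7, and for GAD1 1 of 13 and 2 of 7. These parts lie below the HOX part of the whole cluster on both chips, but from few cells and with overlapping intervals. Among the cluster's 37 cells without 3 HOX genes on the later chips, TFAP2A was read in 17 (45.9%, 29.5 to 63.1), GAD1 in 19 (51.4%, 34.4 to 68.1), ONECUT2 in 25 (67.6%, 50.2 to 82.0), ONECUT1 in 9 (24.3%), GAD2 in 11 (29.7%) and SLC32A1 in 8 (21.6%). In its 19 HOX cells the counts were 4 for TFAP2A, 3 for GAD1, 4 for ONECUT2, 1 for ONECUT1, 4 for GAD2 and 4 for SLC32A1. At day 60, by contrast, TFAP2A was read in 0 of its 85 HOX cells, which allows a share of up to 3.53%, and in 0 of the 3 others. Within the cluster, the TFAP2A level was 0.0662 CPM (1 read) at day 60, 175 CPM at day 90, 590 on 200a and 282 on 200b, and that of GAD1 was 19 CPM at day 60 and 313, 500 and 148 CPM later, from 88, 27, 10 and 19 cells. Single cells set much of these levels: 1 cell held 76.9% of the TFAP2A and 73.1% of the GAD1 reads of the cluster on 200a, and without the cell with the most reads the later levels were 138, 155 and 157 CPM for TFAP2A and 244, 150 and 105 CPM for GAD1, with GAD1 at 14 CPM at day 60. SIX6, a retinal identity factor, was read in 16 of the 37 cells without 3 HOX genes and 2 of the 19 HOX cells, and SIX3 in 28 and 11.

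The day differences were recomputed without the HOX cells. TFAP2A (2.18, 3.22 and 2.26 for day 90, 200a and 200b against day 60 on the log2(CPM + 1) scale) and PROX1 (2.08, 1.77 and 2.50) stayed higher on all later chips, and ONECUT1 (-1.29, -1.99 and -1.92) stayed lower. TFAP2B, which had not passed 2-fold in CPM + 1 and was lower at day 90 than at day 60, was then higher by more than that on every later chip (1.66, 2.79 and 1.15). Its levels without HOX cells were 0.62 CPM (37 reads) at day 60, 4.11 at day 90, 10.2 on 200a and 2.58 on 200b, so that the day 90 difference lies under the minimum of 5 CPM and only 200a exceeds it. The cell with the most TFAP2B reads held 41.6% to 48.6% of these reads on each chip. GAD2 passed 2-fold on both day 200 chips (1.41 and 1.95). GAD1 no longer passed it on 200b (0.84).

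**Figure D4:**
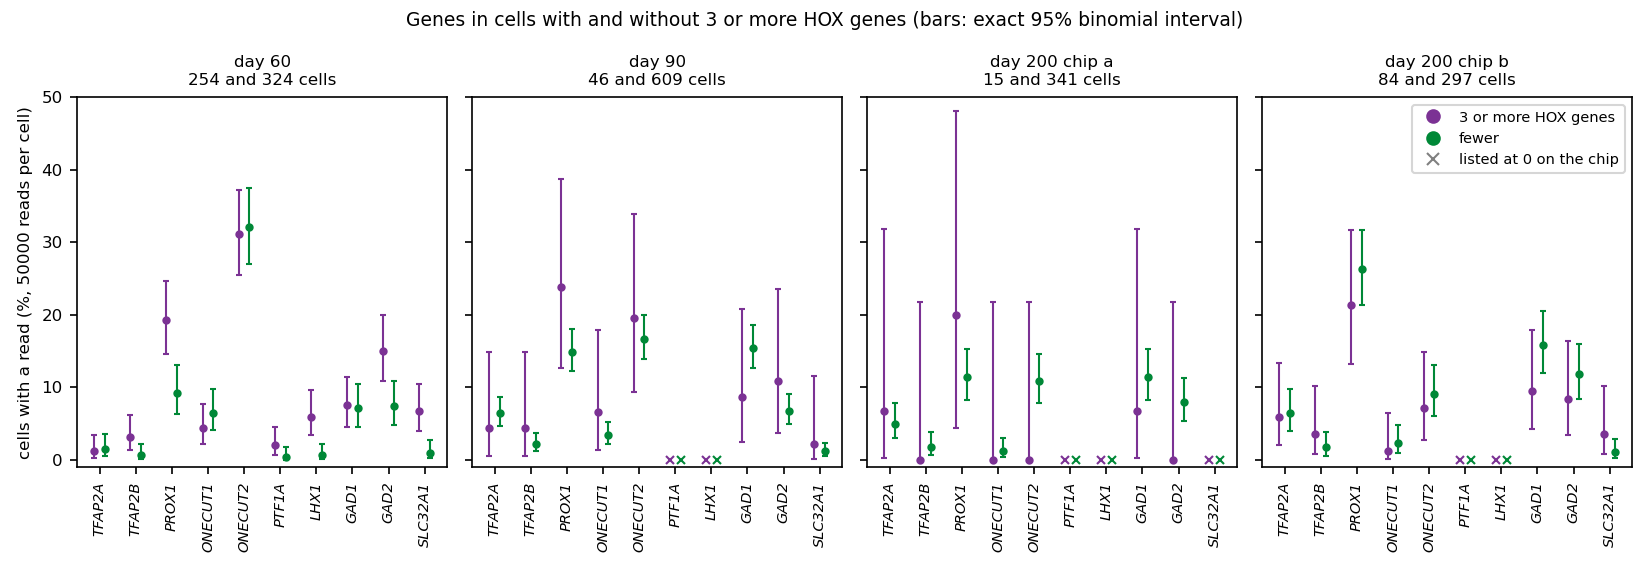
Percent of cells with a read of each gene in cells with 3 or more HOX genes and in the other cells of each chip (numbers of cells above each panel), every cell thinned to 50000 reads, with exact 95% binomial intervals. At day 60 the shares of LHX1, GAD2, PROX1 and SLC32A1 are higher in the HOX cells, and the intervals of TFAP2A, TFAP2B, PTF1A, ONECUT1, ONECUT2 and GAD1 overlap.

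Reads of a regulator and of a GABA gene in the same cell were found on every chip. At 50000 reads per cell, 56 of 578 cells had both at day 60 (9.69%, 7.40 to 12.4), 70 of 655 at day 90 (10.7%, 8.43 to 13.3), 22 of 356 on 200a (6.18%, 3.91 to 9.21) and 34 of 381 on 200b (8.92%, 6.26 to 12.2), 182 cells in all. These shares rest on the commonly read PROX1 and ONECUT2, and with the other 5 regulators alone they were 3.11%, 4.27%, 2.25% and 3.15%. A GABA gene was read in 29.8% (24 to 36.1) of the day 90 cells with a regulator and 15.5% (12.2 to 19.3) of those without. The same shares were 21.1% and 16.0% at day 60, 23.9% and 16.3% on 200a and 25.8% and 23.3% on 200b, with overlapping intervals. Cells with both also had more genes read at 50000 reads, 3356 against 3107 (medians) at day 60, 3074 against 2860 at day 90, 1758 against 1660 on 200a and 3243 against 2768 on 200b, and the part of this in the shares was not tested. Doublets were called for 0 of these cells at day 60, day 90 and 200b and for 4 of the 22 on 200a.

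Of the 182 cells with both, 57 lay in the NEFL and CAMKV cluster, where their share was highest, at 57 of 144 cells (39.6%, 31.5 to 48.1). The next was 11.3% in the VSX1 and KLHL35 cluster, and the share was 4.72% in Müller glia-like and 2.06% in RPE-like cells. In the NEFL and CAMKV cluster 27 of the 37 cells without 3 HOX genes on the later chips (73%, 55.9 to 86.2) had both. All cells with a GABA gene among these had a regulator, but so did 34 of all 37 (91.9%, 78.1 to 98.3). The HOX cells of the cluster had both in 25 of 85 at day 60 and 5 of 19 later.

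A GABA gene was read in a larger share of the cells with an AP-2 factor than of those without. Over all cells, a GABA gene was read in 37 of 91 cells with TFAP2A (40.7%, 30.5 to 51.5) and 19.2% (17.5 to 21.1) of the cells without it. For TFAP2B it was 16 of 39 (41%, 25.6 to 57.9) and 19.8%. Over all cells the shares were 25.8% and 18.9% for ONECUT2, and the intervals overlapped for PROX1 (23.8% and 19.5%), ONECUT1 (29.4% and 19.9%) and LHX1 (29.4% and 20.1%). The ONECUT genes differed by chip. At day 90 a GABA gene was read in 39.6% (30.5 to 49.4) of ONECUT2 cells and 16.7% (13.7 to 20.1) of the others, and in 13 of 24 ONECUT1 cells (54.2%, 32.8 to 74.4) and 19.3% (16.3 to 22.6) of the others, gaps as wide as that of TFAP2A on the same chip (41.5% and 19.2%). At day 60 the shares were 16.9% and 19.0% for ONECUT2 and 18.8% and 18.3% for ONECUT1, on 200a they were 27% and 17.2% for ONECUT2 and 1 of 4 cells and 18.2% for ONECUT1, and on 200b they were 27.3% and 23.9% for ONECUT2 and 0 of 8 cells and 24.7% for ONECUT1, all with overlapping intervals. The PROX1 shares were 21.9% and 24.9% on 200b, the other way round from the other chips, and for TFAP2B they were 1 of 6 cells and 18.3% on 200a. PTF1A was read with a GABA gene in 3 of 6 cells, each time GAD2. Cells with TFAP2A had a median of 2704 genes read and cells without it 2756. With either AP-2 factor the share with a GABA gene was above that without on each chip, at 33.3% and 17.9% at day 60, 42% and 18.8% at day 90, 31.8% and 17.4% on 200a and 46.2% and 22.5% on 200b, and the intervals were apart at day 90 only. In the NEFL and CAMKV cluster it was 22 of 27 cells (81.5%, 61.9 to 93.7) against 38.5% (29.6 to 47.9) of 117, of which 85 were cells of day 60, while 24 of the 27 came from later chips. Chip by chip within the cluster the intervals overlapped, at 2 of 3 cells and 35.3% at day 60, 90.9% (58.7 to 99.8) and 56.2% (29.9 to 80.2) at day 90, 50% and 25% on 200a and 100% (59 to 100) and 41.7% (15.2 to 72.3) on 200b. In the other clusters it was 26.7% (17.8 to 37.4) against 17.7% (15.9 to 19.6).

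GAD1 was the GABA gene most often read with TFAP2A. Of the 91 TFAP2A cells, 30 had GAD1, where the product of the separate shares gives 10.9 cells, a ratio of 2.76, and by chip the ratio was 2.12 at day 90, 2.97 on 200a and 2.89 on 200b. SLC32A1 was read in 9 TFAP2A cells against 1.57 from the product, and GAD2 in 9 against 8.18. PROX1 gave 38 cells with GAD1 against 38.1 and 41 with GAD2 against 28.7. Of the regulators with each other, TFAP2A and TFAP2B shared 17 cells against 1.80 from the product, and ONECUT1 and ONECUT2 shared 37 against 12.6, so that 54.4% of the ONECUT1 cells had ONECUT2. PROX1 and ONECUT1, which are both known for horizontal cells, shared 14 cells against 11.0. GAD1 and GAD2 shared 27 cells against 21.1, and SLC32A1 was read in 13 GAD1 cells against 4.06 and 9 GAD2 cells against 3.05. These ratios are over cells of 4 chips, which differ in depth and cluster makeup, and are given as a description. Cells with 5 or more of the 10 genes were 0 at day 60, 5 at day 90, 0 on 200a and 2 on 200b, and the 5 of day 90 all lay in the NEFL and CAMKV cluster.

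**Figure D5:**
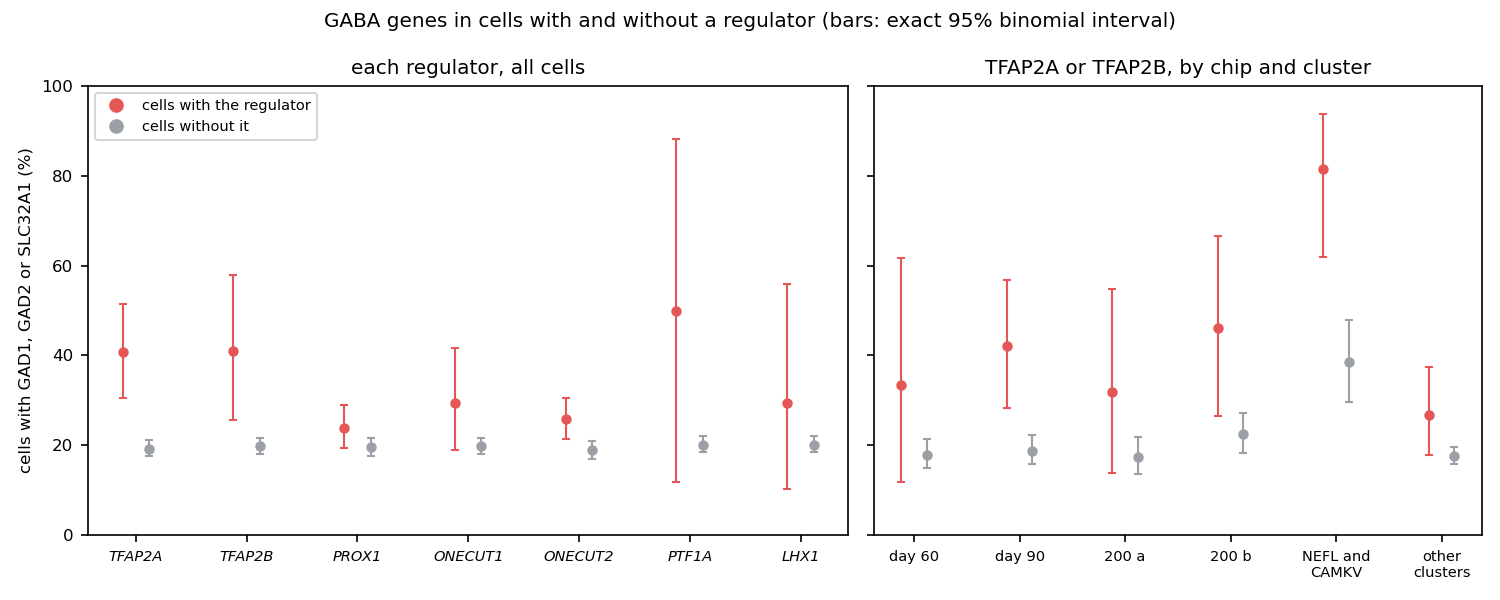
Percent of cells with a read of GAD1, GAD2 or SLC32A1 among cells with and without each regulator over all cells (left), and with and without TFAP2A or TFAP2B by chip and cluster (right), with exact 95% binomial intervals. The TFAP2A cells stand at 40.7% against 19.2%, and the cells of the NEFL and CAMKV cluster with an AP-2 factor, mostly from later chips, at 81.5% against 38.5%, mostly from day 60.

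Other genes of these cell types were followed as lists, in which, as for the 10 genes, a gene listed at 0 on a chip compared was not counted as higher or lower. Over all 13809 genes, 8.07% were higher and 4.40% lower on both day 200 chips than at day 60. Genes listed at 0 are kept in these shares. Of 6 horizontal cell companions in the table, 5 reached 5 CPM, and on both day 200 chips CALB1, a calcium-binding protein, and MEGF11, a spacing receptor of horizontal cells, were higher than at day 60, while ISL1 and FOXN4, a factor upstream of PTF1A, were lower. MEGF11 went from 7.02 CPM at day 60 to 14.6 at day 90, 41.9 on 200a and 57.3 on 200b, and FOXN4 from 35 to 14.1, 7.43 and 7.05 CPM. MEGF11 was read in 6.25% of the NEFL and CAMKV cluster and 9.2% of the cells of other clusters, and CALB1 in 6.94% and 3.94%. ONECUT3 held 43.9% of its reads in the 182 cells with a regulator and a GABA gene, which have 9.70% of all reads. It was read in 48.1% of the NEFL and CAMKV cluster at day 90, but in 9.09% at day 60, 10% on 200a and 5.26% on 200b. Of 15 amacrine companions, 11 reached 5 CPM, 2 were higher at day 200 (LHX9 and the glycine transporter SLC6A9) and 0 lower. EBF1 was at 34.7 CPM at day 60, 5.62 at day 90 and 11.4 on 200b and listed at 0 on 200a. SLC6A5, the transporter of glycinergic neurons, was at 8.93 CPM at day 60, 1.01 at day 90 and listed at 0 at day 200. It held 39% of its reads in the 182 cells, and in the NEFL and CAMKV cluster at day 60, where 85 of 88 cells were HOX cells, it was read in 20.5%. EBF3 (5.42 CPM at day 60, listed at 0 on 200a and 2.47 on 200b) and BHLHE22 (30.7, 9.73 and 19 CPM) were not counted at day 200. PAX6, expressed in amacrine, horizontal and ganglion cells, stayed between 389 and 467 CPM. In the NEFL and CAMKV cluster after day 60, LHX9 was read in 7 of 24 cells with an AP-2 factor and 1 of 32 without, EBF1 in 0 and 8, and PAX6 in 20 and 20. These cells are pooled over the later chips, and the genes were picked from the list after their values were seen.

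Of 8 genes that handle GABA, 7 reached 5 CPM, and SLC12A5, the chloride exporter of mature neurons, was higher at day 200 and 0 were lower. SLC12A5 was at 5.67 CPM at day 60, 8.59 at day 90, 14.7 on 200a and 13.6 on 200b. ABAT, which degrades GABA, was at 169, 68.1, 57.8 and 86.4 CPM, and SLC12A2 at 59, 109, 111 and 105 CPM. Of 15 GABA receptor subunits, 11 reached 5 CPM, 4 were higher on both day 200 chips (among them GABRB1, GABRB2 and GABRG3) and 0 were lower. GABRG3 went from 3.04 CPM at day 60 to 15.3, 57.9 and 41.5 CPM, GABRR1 was listed at 0 at days 60 and 90 and had 4.51 and 6.79 CPM at day 200, and GABRA5 went from 16.6 to 3.81 CPM at day 90 and 5.82 on 200b, listed at 0 on 200a. GABRA2 held 40.5% of its reads in the 182 cells. GABRG3 was read in 5.56% of the NEFL and CAMKV cluster and 7.67% of the cells of other clusters. For GABRB1 (5.56% and 2.25%) and GABRB2 (6.94% and 3.34%) it was the other way round.

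Lists for other cell types were read beside these. Of 16 hindbrain and spinal cord genes, 10 reached 5 CPM, 0 were higher and 5 lower at day 200 (all of them HOX genes: HOXA2, HOXA3, HOXB3, HOXB4 and HOXB5), and their summed level was 762 CPM at day 60, 125 at day 90, 121 on 200a and 315 on 200b. HOXA5 (85.1 CPM at day 60, 6.74 at day 90, listed at 0 on 200a, 30.0 on 200b), HOXA3 (54.8, 9.88, 3.09 and 15.1) and HOXB5 (249, 39.1, 39.1 and 63.9) differed most. PAX8 (21.2, 6.5, 12.7 and 37.7 CPM), PAX2 (27.1, 5.95, 19.8 and 19.4) and HOXB2 (34.2, 7.65, 5.17 and 20.3) had 23.4%, 21.2% and 20.4% of their reads in the 182 cells, and PAX2, a factor of spinal inhibitory neurons and of optic stalk and glia, was read in 41.1% of the 56 cells from day 60 with both, 4.29% of the 70 of day 90, 27.3% of the 22 on 200a and 11.8% of the 34 on 200b. Of 5 forebrain interneuron genes 1 reached 5 CPM, and 0 were called at day 200. Of 6 genes of neural crest and surface ectoderm, 4 reached 5 CPM and only KRT8 was called, lower at day 200 (12.9, 20.7, 5.17 and 5.27 CPM), beside KRT18 (42, 41.3, 9.68 and 24.6) and TWIST1 (1.29, 4.17, listed at 0 and 5.62). The only lens gene in the table, BFSP1, was listed at 0 on 3 chips and had 4.64 CPM at day 90. Of 7 retinal identity genes, OTX2 was higher on both day 200 chips (100 CPM at day 60, 514 at day 90, 403 and 280 at day 200), while RAX (150, 175, 252 and 164), SIX3 (320, 372, 399 and 398) and SIX6 (161, 112, 271 and 161) were not called. CRX (4.74, 10.8, 5.25 and 5.46) was higher at day 90 and not at day 200. Of 7 ganglion cell genes, RBPMS was higher at day 200 and 3 were lower, NEFL, GAP43 and STMN2 (671, 217, 109 and 184 CPM for STMN2). ATOH7 (27.2, 6.22, 1.11 and listed at 0), POU4F2 (19.2, listed at 0 at day 90 and on 200a, 7.90 on 200b) and SNCG (6.15, 1.30, listed at 0 and 1.22) were not counted. Of the other AP-2 and ONECUT family genes, only ONECUT3 reached 5 CPM (3.56, 6.02, 5.47 and 1.17), and 0 of 4 were called.

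The genes whose reads followed each gene most closely over the cells of a chip are given as Pearson correlations of log2(CPM + 1), averaged over the chips with reads in at least 5 cells, and ranked over the genes with reads in at least 5% of all cells, which TFAP2B, ONECUT1, PTF1A, LHX1 and SLC32A1 did not have. All were weak and come from sparse counts, with the genes of a cell sharing its depth and cluster. TFAP2A was the gene most like TFAP2B (mean r 0.26 over 4 chips) and most like GAD1 (0.16), and ONECUT2 the most like ONECUT1 (0.20), each out of at least 12630 genes. For TFAP2A, whose r with the unranked TFAP2B was that same 0.26, the ranked genes were led by NSG2 (0.20), a vesicle protein of neurons, PDGFRA (0.17) and GAD1 (0.16), and after TFAP2A came VGF (0.18) and RNF152 (0.16) for TFAP2B and NSG2 (0.13) and HK2 (0.13) for GAD1. For ONECUT2 they were STMN2 (0.27), CELF4 (0.25) and NSG2 (0.22), and after ONECUT2 ST8SIA3 (0.16) and DPP6 (0.16) for ONECUT1. SLC32A1 was most like GNG3 (0.28), NSG2 (0.26) and GNAO1 (0.25) over 3 chips. For PROX1 they were MIAT (0.16), TCF4 (0.12) and KIF5C (0.12), for GAD2 LGALS3 (0.14), PKIA (0.13) and TACC3 (0.13), and for LHX1, on the day 60 chip alone, TMSB4XP8 (0.23), a pseudogene, SKAP2 (0.23) and PAX2 (0.22). PTF1A had reads in too few cells for this.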

How the data were processed

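Cells of CRX-GFP H9 retinal organoids were captured on Fluidigm C1 chips, with 1 chip at day 60, 1 at day 90 and 2 at day 200. The deposited tables hold raw read counts per gene and cell, with no molecular identifiers, for 1976 cells in 79 chip columns. The authors trimmed reads with Trimmomatic 0.33, aligned them with STAR 2.4.0 and counted them with HTSeq 0.6, per the study's processing notes; the strand setting is not given in the sources used here. On each chip almost no gene has reads in 1 to 4 cells, so a 0 was read as a gene listed at 0.

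The chip was the replicate. Reads were summed per chip and divided by the summed gene reads (CPM), and differences were taken as log2(CPM + 1). A gene was counted as different at 2-fold in CPM + 1 with at least 5 CPM on a chip compared, on both day 200 chips where these were used. With 1 chip at 2 of the 3 days no test was made. Poisson and binomial intervals are exact, at 95%, and cover counting error only. Shares were taken after thinning each cell to 50000 reads, which left out 6 cells. A share of 0 was given the limit that 3 counts allow. Column totals of 3414268 to 7999822 reads bound the precision. Doublets called by scrublet in scanpy 1.11.5 were kept. Cells were clustered with Seurat 5.3.0 (R 4.3.3, 20 dimensions, resolution 0.6, days integrated by canonical correlation) without the 10 genes and their companion lists. For this, 200a and 200b entered together as 1 day, with no correction between them. A cell barcode row was shared by all 4 chips for 38 of 40 rows, as the chip layout gives.

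Every one of the 10 genes was named. The 3 genes with the highest mean correlation over chips were named for each gene with reads in at least 20 cells. From each companion list the genes named were the 3 with the largest day 200 difference among those at 5 CPM, the 3 with the highest share of reads in cells with a regulator and a GABA gene, and those counted as different; other genes of the lists were chosen after their values were seen. The 10 genes and the lists were chosen with earlier results of these data known. Alternatives were the library size, the weight of cells, pseudocount, filters, doublets, thinning depth, regulators counted, clustering settings and correlation; leaving out genes listed at 0, HOX cells and a second draw were added after seeing the data. On simulated counts for day 90 against day 60, the fold step recovered 200 of 200 changed genes and called 0 others of 12046. The settings of these counts are not reported here, and how the step does on the counts of the chips was not tested. Python 3.11.15, numpy 2.4.6, pandas 2.3.3, scipy 1.17.1 and matplotlib 3.10.9 were used. Values of some genes of the companion lists are not reported here.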

Additional observations from a re-analysis of the deposited data

How the results depend on the processing

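No paired analysis was possible because the chip columns carry no numbers shared between days as replicates, and no result comes from a test. Of 161 differences from day 60 recomputed for the 10 genes, 10 changed sign, 0 of them past 2-fold as reported. TFAP2B at day 90 (-0.18) became 1.66 without HOX cells and 1.05 with at least 150000 reads and at most 10% mitochondrial reads, SLC32A1 at day 90 (-0.37) became 1.20 without HOX cells, and the other 7 were under 2-fold both ways. Against day 60, 3 of the 10 genes were higher on both day 200 chips, and 3 to 4 when 200a or 200b was left out; 1 was lower, and 1 to 2 when 1 chip was left out, the added genes without 200a being GAD2 (higher) and ONECUT2 (lower). Leaving out a day 200 chip put the counts over all genes against day 60 at 1656 to 2075 higher (1114 with both) and 866 to 1556 lower (608), and against day 90 at 1055 to 1216 higher (436) and 737 to 1159 lower (346). With a pseudocount of 5 the counts of higher and lower genes were 900 and 624 for day 90 against day 60 (1494 and 1087), 616 and 383 for day 200 against day 60, 168 and 189 for day 200 against day 90, and 853 and 488 for 200b against 200a (1294 and 915). With no minimum CPM they were 2840 and 1963 for day 90 against day 60, 1680 lower for day 200 against day 60, 1664 lower against day 90 and 3281 higher for 200b against 200a. Without genes listed at 0, 378 and 221 genes were lower at day 200 against days 60 and 90. The share of cells with a regulator and a GABA gene was 13.7%, 16.0%, 11.2% and 14.2% without thinning and 3.11%, 4.27%, 2.25% and 3.15% without PROX1 and ONECUT2 (day 60, day 90, 200a, 200b). At day 90 it was 7.14% at 25000 reads and 5.90% asking for 5 reads, and at day 60 it was 6.17% without HOX cells. For day 200 as a whole it was 7.60%, and 6.18% to 8.92% with 1 chip left out. The NEFL and CAMKV cluster had the highest share for 7 to 10 of the 10 genes under the other clusterings, 7 with no integration. By Spearman correlation 15 of the 27 most alike genes were named again. With at least 150000 reads and at most 10% mitochondrial reads per cell, TFAP2B passed 2-fold on both day 200 chips (1.63 and 1.44) and ONECUT1 at day 90 (-1.29). Except where the alternative itself removes cells, reads or genes, the cause was not tested. Depth limits the genes read in few cells most, PTF1A, LHX1, SLC32A1 and TFAP2B.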

Other observations

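The cells of the NEFL and CAMKV cluster after day 60 also differed in genes outside the 10. They are pooled over the later chips, so that the HOX split is mixed with chip. The chips of day 90 and 200b hold both kinds of cell, but the counts by HOX split given here were not taken chip by chip. PAX6 was read in 35 of the cluster's 37 cells without 3 HOX genes and in 5 of its 19 HOX cells. ONECUT3 was read in 14 and 1 of these cells, HOXB5 in 1 and 16 (a gene the split itself uses) and GABRA5 in 0 and 4. At least 3 of the 7 retinal identity genes were read in 17.0% of the cluster's cells at day 60, 37.0% at day 90, 20.0% on 200a and 26.3% on 200b, against 83.2%, 91.9%, 58.8% and 84.2% of the Müller glia-like cells. These values were chosen after they were seen.

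The 22 cells of the GFAP and TTC6 cluster at day 60 and its 21 cells on 200b all had 3 or more HOX genes. PROX1 was read in 21.6% (11.3 to 35.3) of the 51 cells of this cluster.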
